A study of Homo sapiens with 6 samples.

Results

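*HSF1* and 9 heat shock chaperone genes, *HSPA1A*, *HSPA1B*, *HSPA8*, *HSPH1*, *HSP90AA1*, *HSPB1*, *HSPD1*, *HSPE1* and *DNAJB1*, were followed after silencing of *DUSP6* in MDA-MB-453 cells. They were taken by symbol from an RNA sequencing table, and all 10 were among its 22807 rows. MDA-MB-453 is an established HER2+ breast cancer cell line, listed as wild type, and was grown in RPMI medium with serum. Cells of 1 group were transfected with siRNA against *DUSP6* and those of the other with scrambled siRNA, designed to match no human gene, in 3 libraries each. The legend of the study gives 3 different siRNAs per group, and no label ties one of them to a library, so libraries that carry the same label are taken as replicates and may differ in the siRNA. Neither the time after transfection nor the separate cultures are given in the labels, so p-values measure the spread between these libraries only.

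HSF1, heat shock factor 1, is the transcription factor that switches on chaperone genes when unfolded proteins accumulate in the cytosol. In unstressed cells it is held inactive in part by HSP70 and HSP90, and it binds heat shock elements, which are inverted repeats of a GAA unit, in the promoters of its targets. HSP70 proteins (*HSPA1A*, *HSPA1B* and *HSPA8*) bind and release unfolded segments of proteins, J proteins such as DNAJB1 deliver these and stimulate the HSP70 ATPase, and HSPH1 exchanges the nucleotide. HSP90 matures kinases and steroid receptors, and HER2 itself is a known client. HSPB1 keeps unfolded proteins from aggregating without using ATP, and HSPD1 and HSPE1 form the folding chamber of the mitochondrial matrix. Cancer cells commonly hold these proteins at high levels without heat.

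Values are reads scaled by library depth and composition, and libraries are given in the order of replicates 1 to 3 within a group, with 45546981 to 85729785 reads recovered per library. The 10 genes had between 1462 and 258152 reads in a library. *DUSP6*, a phosphatase that acts on ERK, had values of 209, 110 and 114 in the 3 scrambled siRNA libraries and of 39.4, 24.5 and 35.2 in the 3 *DUSP6* siRNA libraries. It fell by 2.05 on the log2 scale (standard error 0.25, limma adjusted p = 3.09e-04; p = 0.1 by a two-sided exact permutation test, which cannot go lower with 3 libraries against 3). All 8 markers of HER2+ luminal cells were expressed, with a summed value of 3643 to 4750 in the scrambled siRNA libraries and 2653 to 2795 in the *DUSP6* siRNA libraries. Of the markers of other cells, *PTPRC*, *PECAM1*, *CDH5*, *COL1A2* and *PDGFRB* stayed under a value of 1, *CD68* lay between 3.41 and 5.47, and *COL1A1* was 80.7 to 105 with scrambled siRNA and 162 to 192 with *DUSP6* siRNA. The part of these differences in the results was not tested. In bulk RNA, fewer cells of a kind and less RNA per cell cannot be told apart.

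The promoters of the chaperones are shown first, since heat shock elements are the sequence they are known to share. Windows of 250 bases before to 50 after a start were taken from RefSeq on GRCh38.p14 for 9 of the 10 genes, with no window for *HSF1*. For *HSPH1* the RefSeq window lies at another start than that of the main (MANE Select) transcript in GENCODE v44, so the window at the latter was read from hg38. An element of 2 units was searched as TTCNNGAA or GAANNTTC, and one of 3 units as the same letters followed directly by NNTTC or NNGAA, respectively, on both strands. The longer motif contains the shorter. The short form occurred in 13.5% and the long form in 0.490% of 35116 windows of this length. Each line gives the strand of the gene from 5′ to 3′, with capitals for the matched letters. *HSPA8* had 2 long matches, of which the nearer is at chr11:123062159-123062211 on the minus strand, *HSP90AA1* had 1 long match at chr14:102087100-102087152 on the minus strand, *HSPH1* had 1 long match at chr13:31161931-31161983 on the minus strand, and *HSPD1* had 2 overlapping long matches at chr2:197500048-197500090 on the minus strand.
HSPA8: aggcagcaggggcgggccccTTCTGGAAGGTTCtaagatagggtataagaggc
HSP90AA1: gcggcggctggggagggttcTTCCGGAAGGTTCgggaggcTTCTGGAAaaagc
HSPH1: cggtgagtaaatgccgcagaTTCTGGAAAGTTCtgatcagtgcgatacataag
HSPD1: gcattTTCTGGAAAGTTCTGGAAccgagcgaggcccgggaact

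*HSPA1A*, *HSPA1B*, *HSPB1* and *DNAJB1* had only short matches in the window at the main start, and *HSPE1* had none. The matches of the stress-inducible HSP70 pair are shown because the copies are nearly the same, at chr6:31815417-31815464 for *HSPA1A* and at chr6:31827613-31827660 for *HSPA1B*, both on the plus strand. The 300-base windows of the pair had 277 identical bases, 22 mismatches and 2 gap bases. No match says only that these letters are not in the window.
HSPA1A: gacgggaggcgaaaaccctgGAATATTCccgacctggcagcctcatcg
HSPA1B: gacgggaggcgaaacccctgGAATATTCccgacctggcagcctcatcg

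With *DUSP6* siRNA, 4 of the 10 genes fell and 0 rose at an adjusted p under 0.05. The 4 were *HSPD1*, *HSPA8*, *HSP90AA1* and *HSPH1*, by 0.37 to 0.62 on the log2 scale. The other 6 were not called by limma, nor were they by edgeR's quasi-likelihood test on the reads. At an unadjusted p under 0.05 there were 5 lower and 0 higher. The share of all genes at that threshold, not given here, is larger than at an adjusted p under 0.05. Over all 12862 genes tested, 24.7% were called lower and 19.7% higher, so the 40.0% of the 10 genes called lower stand beside about 1 in 4. Of the 10 genes, 8 had a mean of at least 100. Among all tested genes at that level, 36.4% were called lower and 10.7% higher. The groups did not overlap in 4 genes that were lower and in 1, *HSF1*, that was higher, beside 31.1% and 26.7% of all genes. The median log2 fold change was -0.32 over the 10 genes, with a range from -0.62 to 0.43, and -0.014 over all genes.

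**Figure D1:**
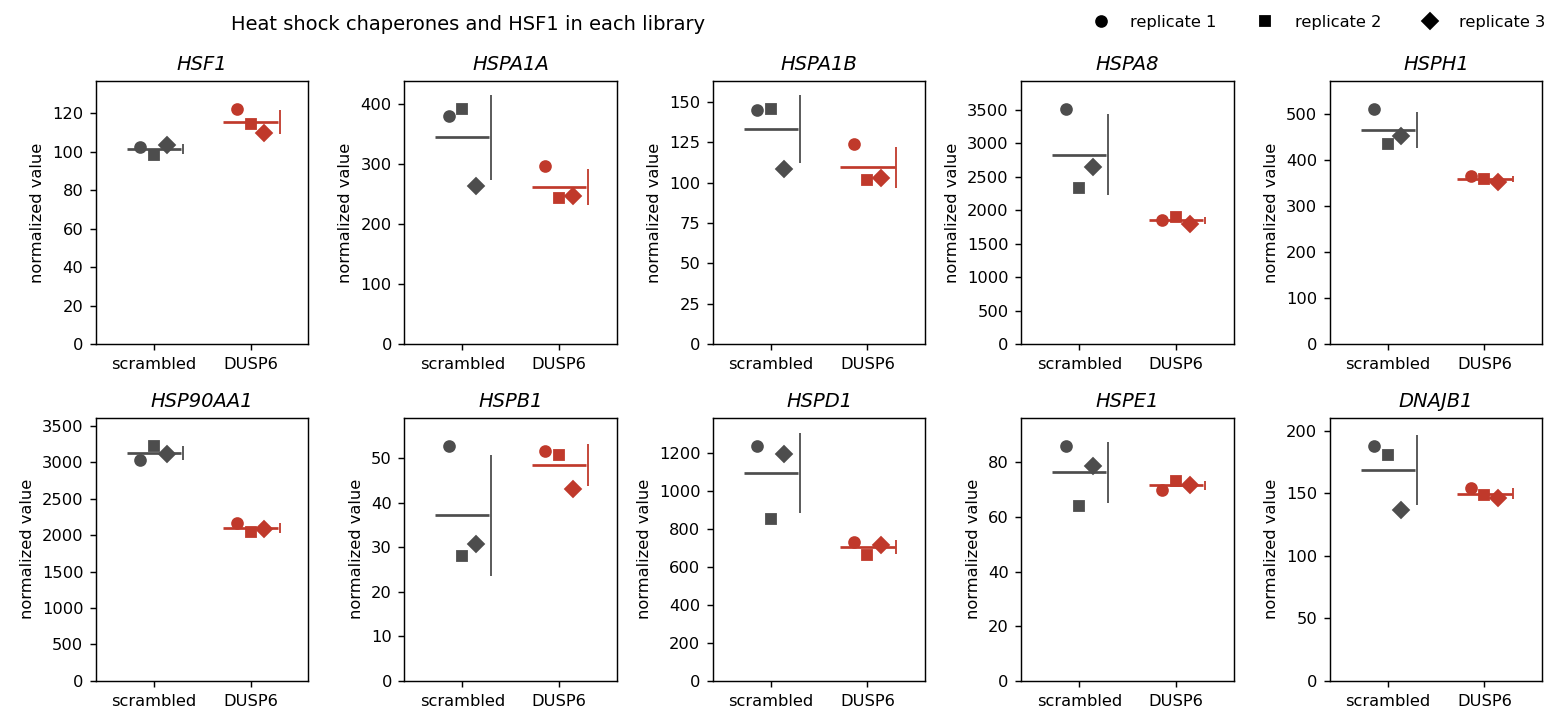
Normalized value (y axis, linear, from 0) of each of the 10 genes in the 3 scrambled siRNA libraries (grey) and the 3 DUSP6 siRNA libraries (red), with the symbol marking the replicate number, the horizontal line the mean and the vertical line ± 1 SD. The red points of HSPA8, HSPH1, HSP90AA1 and HSPD1 lie under every grey point, those of HSF1 lie above, and in the other 5 panels the groups overlap.

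*HSF1*, the regulator, was not called with the values as deposited. Its values were 102, 98.3 and 103 in the 3 scrambled siRNA libraries and 122, 114 and 110 in the 3 *DUSP6* siRNA libraries. All 3 *DUSP6* siRNA libraries were above all 3 scrambled siRNA libraries, and the difference was small. The means were 101 ± 2.74 and 115 ± 6.22 (SD, n = 3 each), and the log2 fold change was 0.18 (95% confidence interval -0.0044 to 0.37, limma adjusted p = 0.101). The call depended on the scaling. It was made under quantile normalization (0.31, limma adjusted p = 0.0158) and with libraries scaled to equal totals of reads (0.41, limma adjusted p = 0.00552). Of all genes, 23.0% and 37.2% were called higher under these scalings. Relative to the median of all genes, the log2 fold change of *HSF1* was 0.20 as deposited, 0.29 under quantile normalization and 0.22 with equal totals. *HSF1* lies on chromosome 8 of GRCh38 from 144291604 to 144314720, and 6.42% of its exon bases overlap exons of *DGAT1* and of a long noncoding RNA on the other strand, so its value is uncertain to that extent.

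Of the other factors, *HSF2*, a relative that forms mixed trimers with HSF1, rose from 17.1 ± 1.58 to 23.4 ± 3.10 (SD, n = 3 each), by 0.43 on the log2 scale (limma adjusted p = 0.0221). *HSBP1*, which binds HSF1 and was described as a negative regulator, was 100, 96.6 and 120 with scrambled siRNA and 121, 126 and 124 with *DUSP6* siRNA, and the log2 fold change was 0.23 (limma adjusted p = 0.0882). Its groups did not overlap, but scrambled siRNA replicate 3 lay just under the lowest *DUSP6* siRNA library. Over 11 tested factors and HSF1 regulators outside the 10 genes, 2 rose (18.2%) and 3 fell (27.3%), beside 19.7% and 24.7% of all genes. Their median log2 fold change was 0.089. *SIRT1*, a deacetylase that prolongs HSF1 binding to DNA, rose by 0.56 (limma adjusted p = 0.00369). *EP300*, an acetyltransferase with HSF1 among its substrates, fell by 0.61 (limma adjusted p = 0.00216), and *IER5*, which promotes HSF1 activity, fell by 0.65 (limma adjusted p = 0.00851). *HSF5* was under the filter on low values with at most 7 reads.

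*HSPA1A* and *HSPA1B*, the intronless genes of the stress-inducible HSP70, did not pass the test. *HSPA1A* had values of 380, 391.8 and 264 in the 3 scrambled siRNA libraries and of 296, 244 and 247 in the 3 *DUSP6* siRNA libraries. *HSPA1B* had 145, 146 and 109 and then 124, 102 and 103. In both genes scrambled siRNA replicate 3 was low, at the level of the *DUSP6* siRNA libraries, and the groups overlapped. The log2 fold change was -0.38 for *HSPA1A* (standard error 0.16, limma adjusted p = 0.0768) and -0.27 for *HSPA1B* (standard error 0.14, limma adjusted p = 0.129).

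Of the 100-base windows in the *HSPA1A* transcript, 72.4% occur unchanged in *HSPA1B*, so counting could split their reads, and 36.6% of the exon bases of *HSPA1B* overlap a long noncoding RNA. Their sum does not depend on that split. It was 525, 537 and 373 in the 3 scrambled siRNA libraries and 421, 346 and 349 in the 3 *DUSP6* siRNA libraries, and the log2 fold change was -0.35 (limma adjusted p = 0.0890). *HSPA1A* made up 70.5% to 72.9% of the sum in every library. The genes lie 9796 bases apart on chromosome 6 (31815543 to 31817942 and 31827738 to 31830254 on GRCh38).

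*HSPA8*, the constitutive cytosolic HSP70 (HSC70), fell in every *DUSP6* siRNA library. Its values were 3505, 2336 and 2637 in the 3 scrambled siRNA libraries and 1853, 1903 and 1799 in the 3 *DUSP6* siRNA libraries. The scrambled siRNA libraries were spread far more widely than the *DUSP6* siRNA libraries, with means of 2826 ± 607 and 1852 ± 52.2 (SD, n = 3 each). The log2 fold change was -0.59 (95% confidence interval -0.93 to -0.24, limma adjusted p = 0.0129). Without *DUSP6* siRNA replicate 3 the call was lost (-0.57, limma adjusted p = 0.0529). Without scrambled siRNA replicate 1, the highest, the value was closer to 0, at -0.42, and the call was made. *HSPA8* lies on chromosome 11 from 123057489 to 123062462.

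*HSPH1*, an HSP110 that acts as a nucleotide exchange factor for HSP70, had values of 510, 435 and 451 in the 3 scrambled siRNA libraries and of 364, 359 and 351 in the 3 *DUSP6* siRNA libraries. The groups were well apart and the *DUSP6* siRNA libraries lay close together. It fell by 0.37 on the log2 scale (standard error 0.09, limma adjusted p = 0.0104). The call was lost without *DUSP6* siRNA replicate 3 (limma adjusted p = 0.0569) and under quantile normalization (-0.13, limma adjusted p = 0.198) and equal totals of reads (-0.14, limma adjusted p = 0.196). *HSPH1* lies on chromosome 13 from 31134973 to 31162388.

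*DNAJB1*, the main stress-inducible J protein of the cytosol (HSP40), had values of 188, 181 and 136 in the 3 scrambled siRNA libraries and of 154, 149 and 146 in the 3 *DUSP6* siRNA libraries. Scrambled siRNA replicate 3 was the lowest of all 6 libraries, so the *DUSP6* siRNA libraries fell inside the range of the scrambled siRNA libraries. The log2 fold change was -0.15 (95% confidence interval -0.44 to 0.13, limma adjusted p = 0.334). It turned to 0.011 under quantile normalization and to 0.074 with equal totals of reads. *DNAJB1* lies on chromosome 19 from 14514769 to 14560391.

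*HSP90AA1*, the inducible cytosolic HSP90, had the lowest adjusted p of the 10 genes. Its values were 3035, 3225 and 3111 in the 3 scrambled siRNA libraries and 2170, 2040 and 2081 in the 3 *DUSP6* siRNA libraries. The gap between the groups was larger than the range within either. The means were 3123 ± 95.6 and 2097 ± 66.5 (SD, n = 3 each), a decrease of 32.9%, with a log2 fold change of -0.57 (95% confidence interval -0.81 to -0.34, limma adjusted p = 0.00227). Of the 10 genes it was the 1 called lower also with equal totals of reads (-0.34, limma adjusted p = 0.0307). *HSP90AA1* lies on chromosome 14 from 102080742 to 102139749.

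*HSPB1*, the small heat shock protein HSP27, had values of 52.8, 28.01 and 30.8 in the 3 scrambled siRNA libraries and of 51.8, 50.7 and 43.1 in the 3 *DUSP6* siRNA libraries. Scrambled siRNA replicate 1 was the highest of all 6 libraries, while the other scrambled siRNA libraries were lower than every *DUSP6* siRNA library. The log2 fold change was 0.43 (standard error 0.21, limma adjusted p = 0.127). Without scrambled siRNA replicate 1 it was 0.70, and higher at a limma adjusted p of 0.00303. *HSPB1* lies on chromosome 7 from 76302673 to 76304292, and 6.05% of its 100-base windows are shared with *HSPB1P1*. Of 8 other small heat shock protein genes in the table, 1 passed the filter on low values, *HSPB11*, and was not called (log2 fold change -0.15). The other 7, with *CRYAB* and *HSPB8* among them, had at most 26 reads in a library.

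Of the mitochondrial chaperonin pair, *HSPD1* passed the test and *HSPE1* did not. *HSPD1* (HSP60) had values of 1236, 854 and 1193 in the 3 scrambled siRNA libraries and of 732, 664 and 717 in the 3 *DUSP6* siRNA libraries, and no library of 1 group reached the other. It fell by 0.62 on the log2 scale (standard error 0.14, limma adjusted p = 0.00814). The call was lost with equal totals of reads (-0.39, limma adjusted p = 0.0533). *HSPE1* (HSP10), its co-chaperonin, had values of 86.1, 64.2 and 78.8 and then 70.0, 73.2 and 71.8. Its *DUSP6* siRNA libraries all lay within the range of the scrambled siRNA libraries (log2 fold change -0.08, 95% confidence interval -0.34 to 0.18, limma adjusted p = 0.592). Its direction turned under quantile normalization (0.019), with equal totals of reads (0.15) and without scrambled siRNA replicate 1 (0.011).

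*HSPD1* and *HSPE1* lie head to head on chromosome 2 (197486584 to 197500274 and 197500379 to 197503449), with the starts of their main transcripts 539 bases apart. The 18-base run of capitals shown above for *HSPD1* (197500068 to 197500085) lies between them, 228 bases before the start of *HSPD1* and 294 bases before that of *HSPE1*, outside the window searched for the latter. Exons of the readthrough gene *HSPE1-MOB4*, which has no value of its own in these data, cover 34.5% of the exon bases of *HSPE1*. Of the 100-base windows of *HSPE1*, 31.7% occur in other genes, so its value is uncertain.

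**Figure D2:**
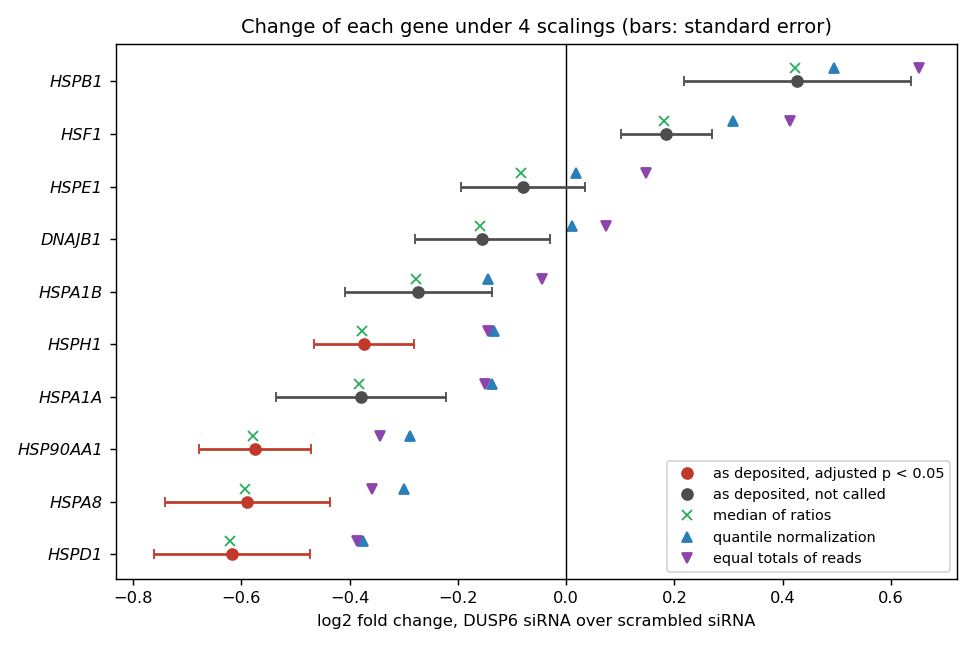
Log2 fold change of DUSP6 siRNA over scrambled siRNA (x axis) for each of the 10 genes (y axis), with circles and standard error bars for the values as deposited and other symbols for 3 other scalings. HSPD1, HSPA8, HSP90AA1, HSPH1, HSPA1A and HSPA1B lie left of 0 under each scaling and HSF1 and HSPB1 right of it. HSPE1 and DNAJB1 change side under quantile normalization and equal totals of reads.

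Per kilobase of the main transcript, the order of the levels in the scrambled siRNA libraries was led by *HSPA8* (1248 ± 268 per kilobase), *HSP90AA1* (968 ± 29.6) and *HSPD1* (487 ± 93.3; SD, n = 3 each), and these 3 did not overlap. *HSPA1A* (144 ± 29.5) and *HSPE1* (137 ± 19.98) followed and could not be told apart by their ranges. *HSPH1* (88.7 ± 7.52) and *DNAJB1* (75.1 ± 12.5) came next and overlapped. *HSPA1B* (52.9 ± 8.39), *HSPB1* (47.9 ± 17.5) and *HSF1* (47.5 ± 1.28) had the lowest means, and all 3 overlapped in range. The range of *HSPB1* also reached that of *DNAJB1*.

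The more abundant of the 10 genes had the lower log2 fold changes, with a Spearman correlation of -0.92 between mean value and log2 fold change (n = 10 genes, which share the 6 libraries and their scaling). The same direction was seen over the whole table. Of 2393 tested genes whose mean reached 100, 36.4% were called lower and 10.7% higher, with a median log2 fold change of -0.14. Of the 10 genes, 8 were among these, and 4 of the 8 were called lower.

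**Figure D3:**
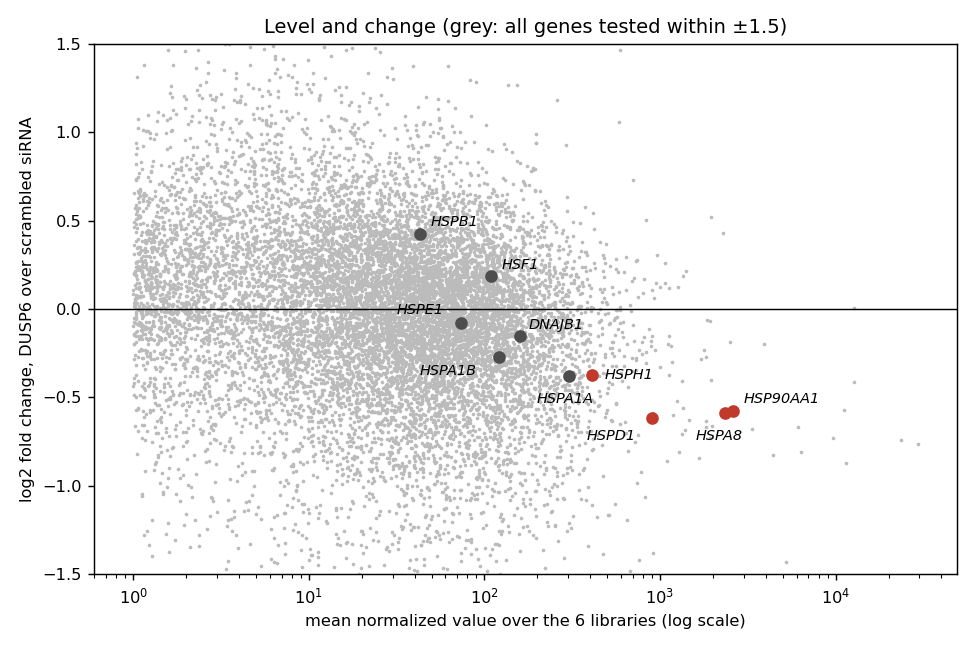
Log2 fold change of DUSP6 siRNA over scrambled siRNA (y axis) against the mean normalized value over the 6 libraries (x axis, log scale) for the 10 genes (large points, red where the adjusted p was under 0.05) and all genes tested whose change lies within the axis (small grey points). The red points of HSPH1, HSPD1, HSPA8 and HSP90AA1 lie furthest right of the 10 and in a part of the plot where most grey points are under 0.

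The scrambled siRNA libraries differed among themselves, and not in the same order for every gene. *HSPA1A*, *HSPA1B* and *DNAJB1* were lowest in scrambled siRNA replicate 3, by 0.36, 0.28 and 0.29 on the log2 scale under the group mean. In these genes scrambled siRNA replicates 1 and 2 were above that mean. *HSF1*, *HSPA8*, *HSPH1*, *HSPB1*, *HSPD1* and *HSPE1* were lowest in scrambled siRNA replicate 2. *HSP90AA1* was lowest in scrambled siRNA replicate 1. Without scrambled siRNA replicate 3, 7 of the 10 genes were called lower in place of 4, with the addition of *HSPA1A* (-0.56, limma adjusted p = 0.00264), *HSPA1B* (-0.41, limma adjusted p = 0.0117) and *DNAJB1* (-0.30, limma adjusted p = 0.0103). Over all genes, 27.8% were called lower without that library. Without *DUSP6* siRNA replicate 3, 2 of the 10 were called lower, beside 18.0% of all genes. With a single library removed, the higher calls were 1 without scrambled siRNA replicate 1, which was *HSPB1*, and 0 otherwise.

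Scaling to equal totals of reads moved the 10 genes together with all others. Quantile normalization moved some of them further than the median of all genes. The deposited values sum to 1033110 to 1135124 in the scrambled siRNA libraries and to 920927 to 924989 in the *DUSP6* siRNA libraries, since composition scaling does not hold the totals equal. With equal totals, the median log2 fold change of all genes moved by 0.21 to 0.20, and 1 of the 10 genes was called lower and 2, *HSF1* and *HSPB1*, higher, beside 13.97% and 37.2% of all genes. Of all calls, 72.7% were then higher, in place of 44.4%. Relative to the median of all genes, the log2 fold change was -0.60 for *HSPD1* as deposited and -0.58 with equal totals, -0.58 and -0.56 for *HSPA8*, and -0.56 and -0.54 for *HSP90AA1*. Under quantile normalization, which gives every library the same distribution, the same differences were smaller, at -0.40, -0.32 and -0.31.

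Ratios within a library do not depend on a scaling by 1 factor per library, and 4 pairs of partner genes were compared with two-sided exact permutation tests, for which 3 libraries against 3 cannot go below 0.1. The log2 ratio of *HSPD1* over *HSPE1* was 3.83, 3.71 and 3.90 with scrambled siRNA and 3.37, 3.16 and 3.30 with *DUSP6* siRNA, a difference of -0.54 (exact p = 0.1, adjusted p = 0.133 over the 4 pairs). The groups did not overlap. *HSP90AA1* over *HSP90AB1*, its constitutive partner, was 0.57, 0.78 and 0.58 and then 0.38, 0.34 and 0.32, a difference of -0.30, again without overlap (exact p = 0.1, adjusted p = 0.133). *HSP90AB1* itself was 1995 ± 108 and 1649 ± 28.5 (SD, n = 3 each), and its log2 fold change of -0.27 did not pass the test (limma adjusted p = 0.0512).

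*DNAJB1* over *DNAJA1*, the other abundant J protein of the cytosol, was -1.04, -1.35 and -1.69 with scrambled siRNA and -1.87, -1.85 and -1.92 with *DUSP6* siRNA, a difference of -0.52 without overlap (exact p = 0.1, adjusted p = 0.133). *DNAJA1* rose from 430 ± 37.9 to 554 ± 12.5 (SD, n = 3 each), by 0.37 on the log2 scale (limma adjusted p = 0.0130). The sum of *HSPA1A* and *HSPA1B* over *HSPA8*, inducible over constitutive HSP70, was -2.74, -2.12 and -2.82 and then -2.14, -2.46 and -2.36. Here the groups overlapped (difference 0.24, exact p = 0.4, adjusted p = 0.4). It was scrambled siRNA replicate 2 that stood above the other scrambled siRNA libraries.

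**Figure D4:**
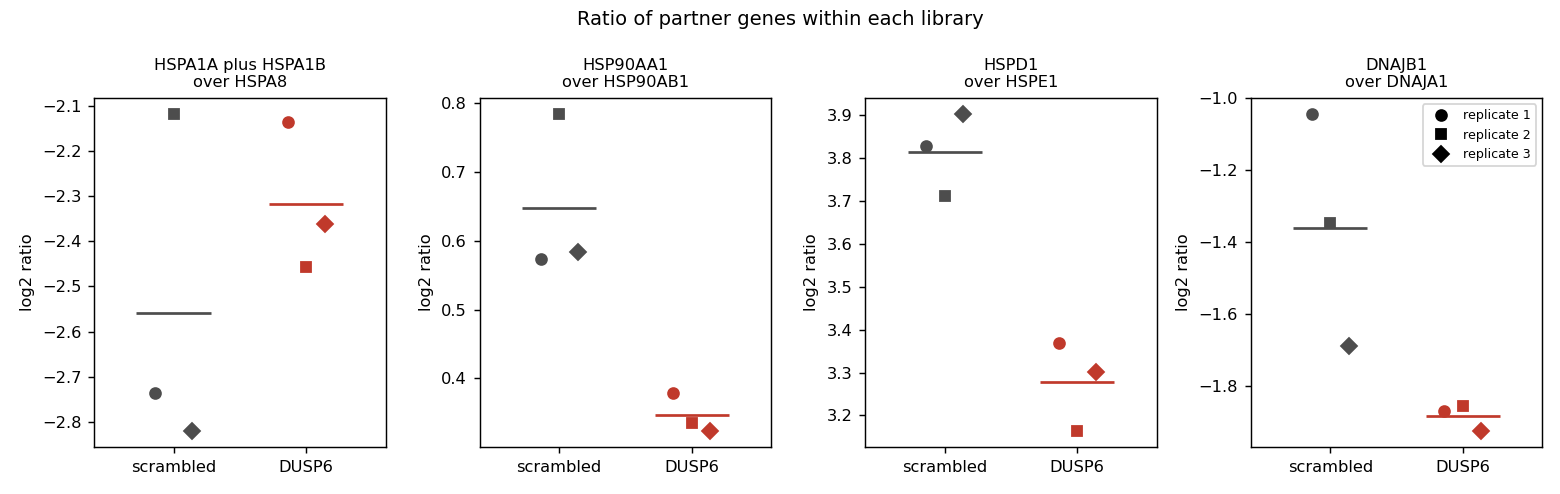
Log2 ratio of 2 genes (y axis, with its own range in each panel and not starting at 0) in the 3 scrambled siRNA libraries (grey) and the 3 DUSP6 siRNA libraries (red), with the symbol marking the replicate number and the line the mean. The ratio is lower in every DUSP6 siRNA library for HSP90AA1 over HSP90AB1, HSPD1 over HSPE1 and DNAJB1 over DNAJA1, and the groups overlap for HSPA1A plus HSPA1B over HSPA8.

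The long form of the heat shock element stood in the window at the main start of each of the 4 genes that fell and in none of the 5 other chaperones searched. For *HSPH1* this holds for the window read from hg38 and not for its RefSeq window, which had no match. For *HSPE1*, which was not called, it depends on the 250-base limit of the window. The element of *HSPD1* lies 294 bases before the start of *HSPE1*. *DNAJA1*, with 1 long match at its main start, rose. *HSP90AB1* had none at its main start and 2 in the window of another start, and it was lower in every *DUSP6* siRNA library without passing the test. Of 48 tested genes with a long match in a RefSeq window, 11 (22.9%) were called lower and 9 (18.8%) higher. The shares were 24.7% and 19.7% of 10079 tested genes with a window and no match. *HSPA8*, *HSP90AA1* and *HSPD1* are among the 11 and *DNAJA1* is among the 9, so these counts are not independent of the genes above. These are matches of letters, and binding of HSF1 was not measured in these libraries.

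Of 19 further heat-inducible genes tested, 3 rose (15.8%) and 5 fell (26.3%), with a median log2 fold change of -0.20. Of all genes tested, 19.7% rose and 24.7% fell. *BAG3*, a co-chaperone that links HSP70 to autophagy, fell by 0.84 (limma adjusted p = 0.00192), and *CACYBP*, a partner of the ubiquitin ligase SIAH1, fell by 0.67 (limma adjusted p = 0.00122). *DNAJB4* rose by 0.54 (limma adjusted p = 0.0193). The number called in either direction, 8, was 13 without scrambled siRNA replicate 3 and 3 without *DUSP6* siRNA replicate 1, 2 or 3.

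Of 17 tested HSP90 relatives and co-chaperones, 1 rose (5.9%) and 6 fell (35.3%), with a median of -0.27. The shares were 19.7% and 24.7% over all genes, and 10.7% and 36.4% over those whose mean reached 100. *FKBP5*, an immunophilin of steroid receptor complexes, fell from 79.5 ± 9.63 to 39.4 ± 1.25 (SD, n = 3 each), at -0.99 on the log2 scale (limma adjusted p = 1.45e-04). *CDC37*, which brings kinases to HSP90, fell by 0.79 (limma adjusted p = 2.33e-04), and *AHSA2P* rose by 0.35 (limma adjusted p = 0.0317). The 7 calls became 11 without scrambled siRNA replicate 2 or 3 and 4 without *DUSP6* siRNA replicate 2.

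Of 11 HSP70 and HSP110 relatives tested, 2 rose and 2 fell (18.2% each), beside 19.7% and 24.7% of all genes. Their median was 0.059. *HSPA13*, a microsomal HSP70, rose by 0.65 (limma adjusted p = 5.36e-04) and *HSPA12A* by 0.52 (limma adjusted p = 0.00521), the latter at a mean of 3.89 with scrambled siRNA. *HSPA4L*, a relative of *HSPH1*, fell by 0.49 (limma adjusted p = 0.0178). *HSPA9*, the HSP70 of mitochondria, had values of 714 to 801 with scrambled siRNA and of 524 to 587 with *DUSP6* siRNA and fell by 0.44 (limma adjusted p = 0.00516). Of 11 nucleotide exchange factors, 1 rose, which was *SIL1* of the endoplasmic reticulum (0.56, limma adjusted p = 0.00184), and 3 fell, with *BAG3* and *HSPA4L* among them, at a median of -0.14. These were 9.1% and 27.3% of that list, beside 19.7% and 24.7% of all genes. The 4 calls became 2 without *DUSP6* siRNA replicate 2.

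The 36 J proteins tested moved in both directions, with 9 that rose, 7 that fell and a median of 0.013. *DNAJB9*, a J protein of the endoplasmic reticulum, rose from 22.2 ± 5.66 to 37.7 ± 4.12 (SD, n = 3 each), by 0.76 on the log2 scale (limma adjusted p = 0.00704), and *DNAJC12* rose by 0.67 (limma adjusted p = 0.00533). *DNAJA4*, a cytosolic J protein, fell from 64.1 ± 1.74 to 31.3 ± 3.11 (SD, n = 3 each), at -1.02 on the log2 scale (limma adjusted p = 9.95e-05). *DNAJC9*, which also binds histones, fell by 0.78 (limma adjusted p = 2.08e-04).

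Of 14 subunits of TRiC, the chaperonin of the cytosol, and of prefoldin, 0 rose and 4 fell (28.6%) by limma. By edgeR 0 rose and 3 fell. At an unadjusted p under 0.05, 0 were higher, and the median log2 fold change was -0.021. The prefoldin subunit *VBP1* fell by 0.43 (limma adjusted p = 0.00676) and the TRiC subunit *TCP1* by 0.43 (limma adjusted p = 0.00828). The 4 calls became 2 without scrambled siRNA replicate 1 or without *DUSP6* siRNA replicate 1, 2 or 3. Of 14 mitochondrial chaperones and proteases, 4 rose (28.6%) and 3 fell (21.4%), beside 19.7% and 24.7% of all genes. Their median was 0.066. The protease *HTRA2* rose by 0.53 (limma adjusted p = 0.0256) and the J protein *HSCB*, which acts in iron-sulfur cluster assembly, by 0.49 (limma adjusted p = 0.0277). *TRAP1*, the HSP90 of mitochondria, fell by 0.57 (limma adjusted p = 0.01), as did *HSPA9* above. The 7 calls became 3 and 4 without scrambled siRNA replicates 1 and 2, and they became 2, 1 and 2 without each *DUSP6* siRNA library in turn.

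With each gene counted once, 20 of 115 tested genes of these lists rose (17.4%) and 27 fell (23.5%), with a median of -0.0086, close to the shares over all genes.

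**Figure D5:**
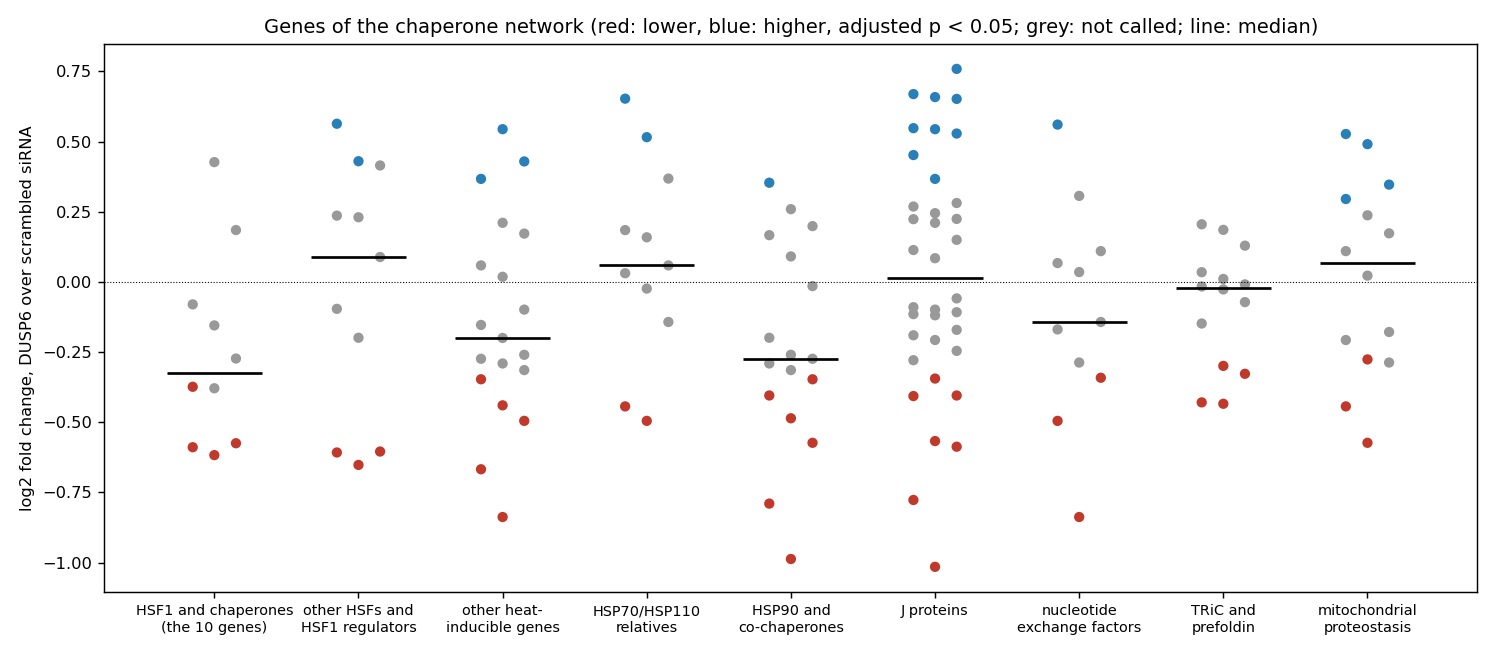
Log2 fold change of DUSP6 siRNA over scrambled siRNA (y axis) of each tested gene, by list (x axis), with red points for genes called lower, blue for genes called higher, grey for genes not called and a line for the median. Some genes stand in 2 or more lists. The median lies at -0.32 for the 10 genes and between -0.27 and 0.089 for the other lists, and J proteins reach furthest in both directions.

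The tested genes outside the lists whose values over the 6 libraries were most like those of *HSF1* were *TRAF1* (Pearson r = 0.98), *KIAA0895L* (r = 0.98) and *BCL7C* (r = 0.98), and 199 of 12737 genes reached an r of 0.9. For the sum of *HSPA1A* and *HSPA1B* they were *LOC101929767* (r = 0.99), *LOC101060024* (r = 0.99) and *FN1* (r = 0.98), at means of 1.11, 1.49 and 3.83 with scrambled siRNA, and 275 genes reached that r. These values describe 6 libraries that share the difference between the groups.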

How the data were processed

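RNA from 6 libraries of MDA-MB-453 cells was sequenced with a stranded mRNA kit, and 3 libraries with *DUSP6* siRNA were compared with 3 with scrambled siRNA. Alignment to hg38 and assignment to RefSeq gene models were done by the authors with Rsubread at default settings, and they deposited 1 normalized signal value per gene and library. The submitters' processing notes also name bcl2fastq and edgeR. Whether strand was used in counting is not given in the sources used here. Divided by a step of 0.0121 to 0.0202 per library, the values gave whole reads (tolerance 0.01), and the steps match edgeR's TMM scaling.

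From these values, log2(value + 1) was compared by limma 3.58.1 (lmFit, eBayes with a trend; R 4.3.3) for genes with a mean of at least 1, with Benjamini-Hochberg adjustment over the 12862 genes tested and calls at an adjusted p under 0.05. All 10 genes passed the filter. A fold change is on the log2(value + 1) scale, which understates the change of low genes. The alternatives were edgeR 4.0.16 on the recovered reads, a pseudocount of 0.1, no filter, a mean of at least 10, median of ratios, quantile normalization, eBayes without a trend, a replicate block and leaving out each library. Scaling to equal totals of reads was added after seeing the data. The tests were checked on simulated data.

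Named genes were the 10 genes, *DUSP6*, *HSF2*, *HSBP1*, the partners in the ratios, the called genes with the 2 largest increases and 2 largest decreases of each list, and the 3 genes most like *HSF1* and the sum of *HSPA1A* and *HSPA1B*. *DGAT1*, *HSPB1P1*, *HSPE1-MOB4*, the markers and genes under the filter were named for the results they touch. One gene that the rule names is not reported here. The genes, lists and tests were chosen with earlier results of these data known. Positions and promoters are RefSeq's on GRCh38.p14, and gene models GENCODE v44.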

Additional observations from a re-analysis of the deposited data

How the results depend on the processing

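Of the 10 genes, the number called lower was 4 as reported, 2 without the filter on low values, where *HSPA8* (limma adjusted p = 0.0924) and *HSP90AA1* (limma adjusted p = 0.0660) lost the call, and 1 with equal totals of reads. The number called higher was 0 as reported, 1 under quantile normalization and 2 with equal totals. Leaving out 1 library gave 2 to 7 lower and 0 to 1 higher. The log2 fold change of *HSPE1* turned to 0.019 under quantile normalization and 0.15 with equal totals and ranged from -0.20 to 0.011 with 1 library left out, and that of *DNAJB1* turned to 0.011 and 0.074 under the first pair of settings. Over all genes, 2540 were higher and 3179 lower, 1639 were higher at a mean of at least 10, and 4794 were higher and 1799 lower with equal totals. Leaving out 1 library gave 1535 to 3213 higher and 2309 to 3578 lower. The lists' calls in either direction ranged, with 1 library left out, from 3 to 13 for heat-inducible genes, 4 to 11 for HSP90 co-chaperones, 2 to 5 for nucleotide exchange factors, 2 to 4 for TRiC and prefoldin, and 1 to 7 for mitochondrial genes. Without the filter, the mitochondrial list had 3 calls and the small heat shock proteins 1. The cause of these differences was not tested.

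The values gave no clear sign that the replicate numbers pair the samples, and 3 libraries per group cannot exclude it. Same-numbered libraries had correlations of their deviations of 0.0050, 0.087 and -0.076, and not every library correlated best with its own number. With a replicate block, 5 of the 10 genes were lower, with the addition of *HSPA1A* (limma adjusted p = 0.0302), and 1 was higher, *HSPB1* (limma adjusted p = 0.0426), and the mitochondrial list had 4 calls. Over all genes, the block gave 2495 higher and 3096 lower.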
